A study of Mus musculus with 2 samples.

Results

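Fibroblasts with RNA of adventitial genes, such as Pi16 and Clec3b, were picked out of B16F10 melanomas. They were described gene by gene in tumours of Atf4 wild-type and Atf4-deleted hosts. A cell was selected if it had a UMI of at least 2 of 6 adventitial genes (Clec3b, Pi16, Cd55, Scara5, Prg4 and Sned1) and of at least 2 of 6 fibroblast genes (Dcn, Lum, Pdgfra, Dpt, Mmp2 and Serpinf1). It also had less than 0.5% of its UMIs in the melanoma genes Pmel, Dct, Mlana and Tyrp1, at most 1 of 5 mural genes (Rgs5, Notch3, Des, Higd1b and Kcnj8) and at most 2 of 6 mitotic genes. A UMI is 1 counted RNA molecule. The rule took 79 cells, 31 from the WT and 48 from the KO library, out of 7418 cells that passed quality filtering and 11778 deposited barcodes. The same gate held 273 other fibroblasts (121 WT and 152 KO) with at most 1 adventitial gene, and these are the cells compared with below. Some of them may be cells of the same kind in which the adventitial genes were not caught.

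Fibroblasts marked by Pi16 and Dpp4 are found in the adventitia of vessels and in the fascia and reticular layers of many mouse organs, where they lie in loose matrix around larger vessels. They are described as a resting fibroblast state with features of a progenitor, and as a source of complement, chemokines and elastic fibre proteins. Activated fibroblasts of tumours differ from them in making contractile proteins and matrix proteins of wounds. Of the genes in the rule, Pi16 encodes a secreted peptidase inhibitor domain protein, Clec3b the plasminogen-binding protein tetranectin, and Cd55 a surface inhibitor of complement. Scara5 encodes a scavenger receptor that binds ferritin, Prg4 the lubricant lubricin, and Sned1 a secreted matrix protein.

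B16F10, a mouse melanoma cell line, was grown in C57BL/6 mice of the genotypes Rosa26::CreERT2:Atf4wt/wt (WT, labelled Atf4wt/wt) and Rosa26::CreERT2:Atf4fl/fl (KO, labelled Atf4D/D). Both carried the tamoxifen-inducible Cre under the Rosa26 promoter, which is active in most cell types, and both received tamoxifen, so the deletion concerns host cells of all kinds and not fibroblasts alone. The injected melanoma cells kept their own Atf4. Tumours were taken while small, from hosts aged 11 weeks with males and females pooled, and each genotype had 1 library made from 2 tumours. The 2 libraries held 38417113 (WT) and 38290024 (KO) UMIs.

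With 1 library per genotype there is no replicate, so no p-value is given and every interval below is a 95% interval for counting error alone. It covers neither mice nor the spread between cells. The adventitial-type fibroblasts summed to 93861 UMIs in WT and 167099 in KO, with medians of 2831 (819 to 7769) and 2733 (1410 to 10000) UMIs per cell, against medians of 3720 and 3995.5 in the other fibroblasts. The deepest single cell held 8.28% of the WT and 5.98% of the KO UMIs. Scrublet, a doublet caller, marked 0 of them. The libraries shared 10 barcodes, none of them in these 79 cells. The sexes were not evenly represented. Xist, expressed in female cells, had a UMI in 29 of 31 WT and 17 of 48 KO cells, and Y-linked genes had 0 UMIs in WT and 13 UMIs in 8 cells in KO. The other fibroblasts were split in the same way. Xist had a UMI in 77.7% of their WT and 24.3% of their KO cells, and Y-linked genes had 0 UMIs in WT and 45 UMIs in 31 cells in KO. Genotype and sex of the cells therefore cannot be told apart, except by the values given below for Xist-positive cells that lack Y-linked UMIs.

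The genes of the rule chose the cells, and their levels are a description. Clec3b (chromosome 9, 123150946 to 123157432, GRCm38) stood at 671 CPM (the UMIs of a gene scaled to a fixed total of UMIs over the summed cells) in WT and 419 CPM in KO, and had a UMI in 27 of 31 and 32 of 48 cells. Pi16 (chromosome 17, 29317680 to 29330593) was at 479 CPM in 17 WT cells and 317 CPM in 18 KO cells. Sned1 was at 426 CPM in 23 WT cells and 180 CPM in 21 KO cells. These 3 genes thus stood higher in WT, and the remaining 3 stood higher in KO. Prg4 (chromosome 1, 150449412 to 150466165) was at 266 CPM in 8 WT cells and 664 CPM in 33 KO cells, and 37 of its 111 KO UMIs came from 1 cell. Cd55 was at 139 and 275 CPM, in 10 and 23 cells. Scara5, the rarest, was at 63.9 and 120 CPM, in 5 and 12 cells. The selection therefore leaned on Clec3b, Sned1 and Pi16 in WT and on Prg4 and Clec3b in KO. The most frequent pair was Clec3b with Sned1 in WT (20 cells) and Clec3b with Prg4 in KO (19 cells). Pi16 with Clec3b was seen in 16 WT and 10 KO cells. Free RNA of these genes was rare. In kept cells outside the fibroblast gate each of the 6 genes had a UMI in at most 1.86% of cells, a value reached by Cd55 in KO.

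**Figure D1:**
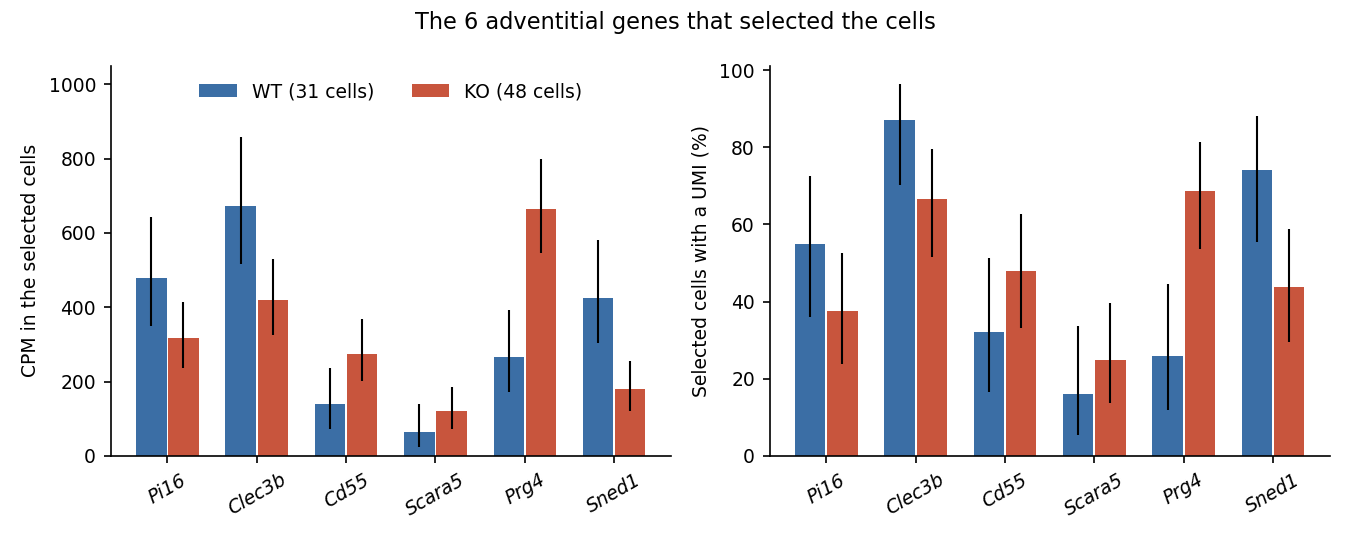
Level in CPM (left) and percentage of cells with a UMI (right) of the 6 adventitial genes of the rule in the selected cells, with WT (31 cells) in blue and KO (48 cells) in red. Error bars are 95% Poisson (left) and Clopper-Pearson (right) intervals, and Prg4 reached 68.8% of KO cells against 25.8% of WT cells.

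Few of the cells carried more than 3 of the 6 genes. In WT 14 cells had 2 adventitial genes, 9 had 3, 5 had 4 and 3 had 5. In KO the numbers were 20, 16, 9 and 3, and no cell of either library had all 6. The cells just inside and just outside the threshold were set side by side for 18 markers of Pi16-type fibroblasts that the rule did not use. Their summed level was 6340 CPM in the 37 WT cells with 1 adventitial gene and 8147 CPM in the 14 with 2. In KO it was 6256 CPM in the 40 cells with 1 gene and 8956 CPM in the 20 with 2. Cells with 0 genes were lower (4499 and 3999 CPM) and those with 3 or more were higher (13137 and 14435 CPM), so the sum stood higher at each step in both libraries, and the threshold cuts a graded series.

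**Figure D2:**
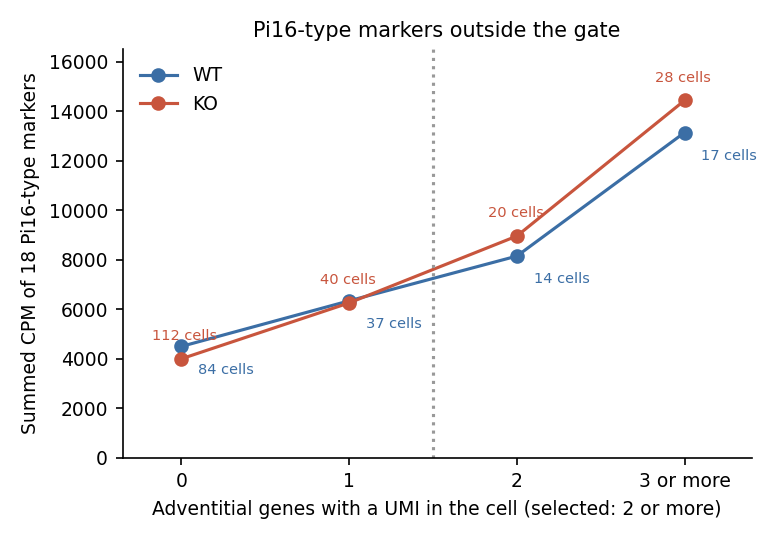
Summed CPM of 18 Pi16-type markers outside the gate (y axis) in fibroblasts grouped by the number of adventitial genes with a UMI (x axis), for WT (blue) and KO (red), with the number of cells at each point. The dotted line is the threshold of the rule, and the sum stood at 4499 (WT) and 3999 CPM (KO) with 0 genes and at 13137 and 14435 CPM with 3 or more.

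The label was set beside these 18 markers. Of them, 16 had at least 20 UMIs in the adventitial-type cells, a filter that markers scarce in these cells cannot pass. Of the 16, 15 stood above the other fibroblasts in both libraries, where 36.7% of all 1986 genes under the same filter did so. Past 2-fold in both were 11, where 6.24% of genes were. The median log2 ratio over the other fibroblasts was 1.89 in WT and 1.49 in KO. Dpp4, the peptidase used to sort such cells, had 10 UMIs in WT (107 CPM) and 16 UMIs in KO (95.8 CPM), and stood 4.60 (2.37 to 7.84) and 2.55 (1.35 to 3.80) log2 units above the other fibroblasts. Ly6c1, a surface antigen also found on endothelium, was at 618 and 958 CPM, 2.93 and 2.51 log2 units above. The stem cell antigen gene Ly6a was at 1939 and 2262 CPM and the sialomucin gene Cd34 at 671 and 580 CPM. Sema3c, a secreted guidance cue, was rarer (160 and 180 CPM) but stood 2.87 and 3.74 log2 units above. Tppp3, a marker of tendon sheath and adventitial cells, was the 1 measured marker not above in both libraries, with log2 ratios of -0.065 (-1.15 to 0.88) in WT and 1.95 (1.10 to 2.80) in KO. The elastic fibre gene Mfap5 had 0.02 (-0.21 to 0.24) in WT and 0.70 in KO. Wnt2 and Efhd1 were too scarce in the adventitial-type cells to be measured. In WT, Wnt2 was at 0 CPM in cells with 2 adventitial genes and 20.9 CPM with 3 or more, against 39.8 CPM with 1. In KO it was at 52.3 and 55.2 CPM, against 51.3 CPM. Efhd1 had 0 UMIs in WT and KO cells with 1 gene, and 1 and 5 UMIs with 3 or more. Since the gate chose the cells and the filter used their UMIs, these ratios carry no test. They describe the label and do not test it.

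Markers of other cell types were sparse. The 8 T and NK cell markers and, in WT, the 5 mesothelial markers had 0 UMIs, and in KO the mesothelial list showed only Krt19 (8 UMIs), with Msln and Upk3b at 0. Of 10 endothelial markers, 12 UMIs were seen in WT and 10 in KO, with Cdh5 and Kdr at 0 in both. The 10 myeloid markers gave 81 UMIs in WT and 26 in KO, and 92.6% of those in WT came from 1 cell, while Ptprc was at 0 in both. Mural markers outside the gate gave 9 and 47 UMIs, the latter mostly Ndufa4l2 (43 UMIs), a gene that is also induced by hypoxia. Melanoma RNA was present at 671 and 628 CPM of the 4 pigment genes of the gate. At an even depth of 2000 UMIs per cell Dct had a UMI in 43.5% of WT and 51.2% of KO cells.

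Adventitial-type fibroblasts made up 0.803% (0.546 to 1.14) of the kept WT cells and 1.35% (0.997 to 1.79) of the kept KO cells, and the log2 KO/WT ratio of these shares was 0.75 (0.07 to 1.45). Among the fibroblasts of the gate the shares were 20.4% (14.3 to 27.7) and 24.0% (18.3 to 30.5), at a ratio of 0.23 on the log2 scale (-0.45 to 0.94), so within fibroblasts the difference was not detectable at this number of cells. The gate counts detected genes and so depends on depth. With each fibroblast thinned to 2000 UMIs and the gate applied again, 16 of 122 (13.1%) in WT and 35 of 154 (22.7%) in KO were selected. The log2 ratio was 0.79 (-0.10 to 1.75). This left out 23 and 25 fibroblasts that were too shallow, among them 8 of the 31 WT and 5 of the 48 KO selected cells. Cells that no longer met the fibroblast gate after thinning were also left out. At 1000 UMIs, where 1 WT and 0 KO selected cells were too shallow, the shares were 10.7% and 13.4%, a log2 ratio of 0.33 (-0.75 to 1.46).

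Against the other fibroblasts of the same library, the adventitial-type cells had high levels of Cxcl13 and of complement genes and low levels of Tagln and Acta2. Of 3230 genes with at least 60 UMIs over all fibroblasts, 96 (2.97%) were past 2-fold above in both libraries and 43 (1.33%) past 2-fold below. Cxcl13, the chemokine that attracts B cells (chromosome 5, 95956951 to 95961068), led the first group. It had 437 CPM in WT against 1813 CPM in KO, against 4.38 and 86.3 CPM in the other fibroblasts, 6.64 (4.70 to 9.73) and 4.39 (3.98 to 4.82) log2 units. The adventitial-type cells held 95.3% of the WT and 83.9% of the KO fibroblast UMIs of Cxcl13, while they held 17.0% and 19.9% of all fibroblast UMIs. Lbp, which binds bacterial lipopolysaccharide, stood 3.91 and 3.47 log2 units above, at 362 and 329 CPM. Chl1, a neural adhesion molecule, was 3.70 and 2.92 above. Htra3, a secreted serine protease, stood 2.83 and 2.71 above, and Adamts5, which cleaves aggrecan and versican, stood 2.57 and 2.46 above. The WNT antagonist Sfrp4 (2.65 and 3.81), the copper oxidase ceruloplasmin Cp (2.70 and 2.58), Ifitm1, an interferon-induced membrane protein (2.28 and 2.96), and the guanine deaminase Gda (2.16 and 2.50) completed the 12 leading genes with Ly6c1, Sema3c and C4b.

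The measured complement genes stood above the other fibroblasts. Measured means at least 20 UMIs in the adventitial-type cells, so a gene scarce in them could not be counted. In the other fibroblasts 6 of the 8 listed genes had at least 20 UMIs. All 5 genes measured in the adventitial-type cells were past 2-fold above in both libraries. Under the same filter 6.24% of all genes were past 2-fold above and 0.403% past 2-fold below. Their median log2 ratios were 1.85 in WT and 1.70 in KO. C3, the central component (chromosome 17, 57203970 to 57228136), had 2195 CPM in WT against 1724 CPM in KO, 3.53 and 2.15 log2 units above. C4b was at 618 and 491 CPM, and the proteases of the first component C1ra and C1s1 stood 1.85 and 1.81 log2 units above in WT and 1.33 and 1.42 in KO. Serping1, which inhibits those proteases, was at 1502 CPM in both libraries. Immediate early genes, which are induced within minutes of stimulation and of tissue dissociation, were above in both libraries for 15 of 18 measured genes, where 36.7% of all genes were, and past 2-fold for 3, where 6.24% were, Fos among them (1.30 and 1.25 log2 units).

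Markers of the activated state were low, as were the 8 genes furthest below. Tagln, an actin-binding protein of smooth muscle, had 5 UMIs in 1 WT cell and 3 UMIs in KO, with log2 ratios over the other fibroblasts of -3.31 (-4.95 to -2.07) and -3.01 (-5.31 to -1.42). Acta2, smooth muscle actin, had 2 and 8 UMIs. Tnc, the wound matrix protein tenascin-C, had 0 UMIs in WT, where 3 UMIs would put its log2 ratio at -5.59, and 20 UMIs in KO, with -2.37 (-3.09 to -1.72). Of the 7 measured genes of 13 on the activated list, 0 stood above the other fibroblasts in both libraries and 6 stood below. Over all genes with at least 20 UMIs these shares were 36.7% and 28.9%. The other genes of this end were low throughout, with 1 to 8 UMIs each in WT and KO: Mical2, an actin regulator, Wisp1, a matricellular protein, Cks2, a cell cycle protein, Lbh and Golga7. Mitotic genes of the gate, which the rule itself kept low, had 7 UMIs in each library (74.6 CPM in WT and 41.9 CPM in KO). The other fibroblasts, held to the same limit, had 94.1 and 89.3 CPM.

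**Figure D3:**
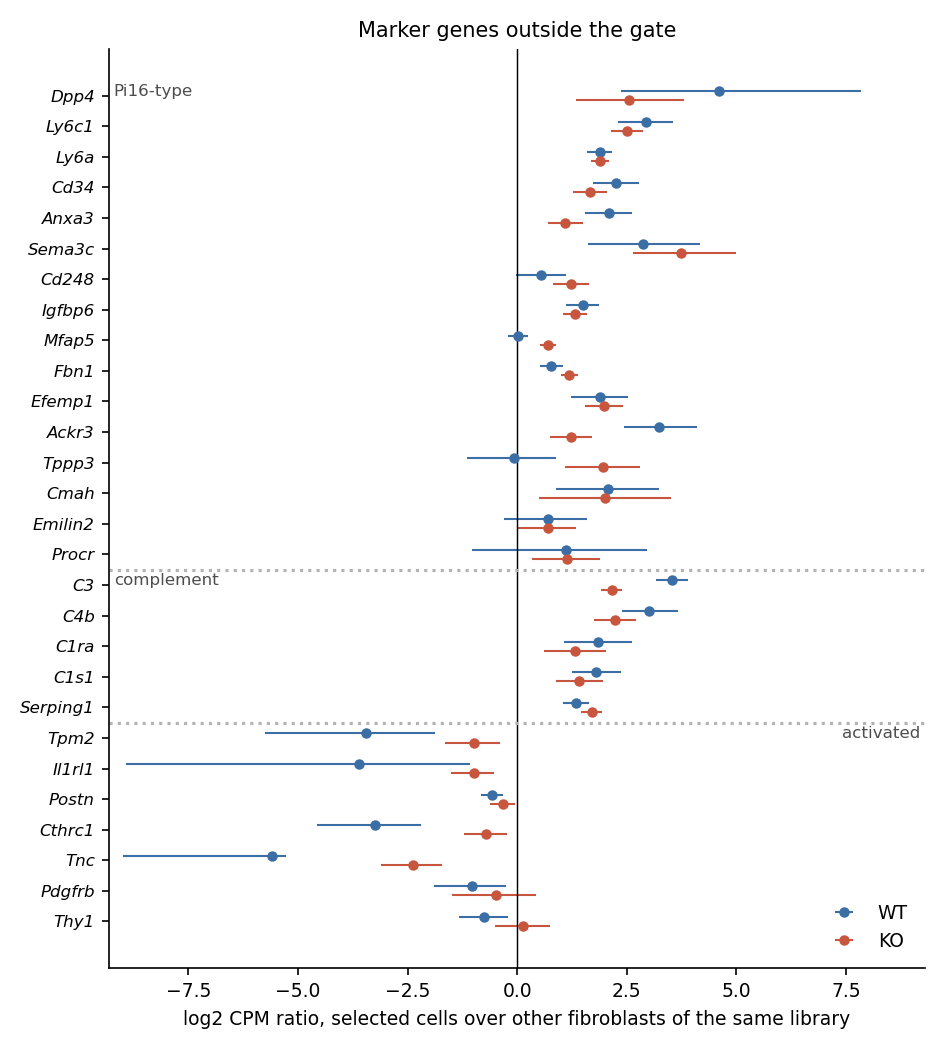
log2 CPM ratio (x axis) of adventitial-type over other fibroblasts within the WT (blue) and KO (red) library for measured Pi16-type, complement and activated markers (y axis), with 95% counting intervals cut at 9. Complement genes lay between 1.33 and 3.53, and the Tnc value in WT is a bound from 0 UMIs in the selected cells.

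The targeted gene was then compared between genotypes. Atf4 (chromosome 15, 80255184 to 80257541) was at 266 CPM in WT (172 to 393, 25 UMIs in 16 cells) and 23.9 CPM in KO (6.52 to 61.3, 4 UMIs in 4 cells), a log2 ratio of -3.48 (-5.46 to -1.94). The transcript Atf4-201 ends in exon 3, and exons 2 and 3 lie between the loxP sites of the floxed allele, so the 3′ tags read the deleted part. At 2000 UMIs per cell 47.8% of WT and 4.65% of KO adventitial-type cells had an Atf4 UMI. In the other fibroblasts the log2 ratio was -1.79 (-2.31 to -1.29), and the ratio of the adventitial-type cells differed from it by -1.68 (-3.74 to -0.04). The library labels and the Atf4 counts point the same way in these cells.

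Of 40 target genes of ATF4, 10 had at least 20 UMIs, and their median log2 KO/WT ratio was -0.39, against 0.06 for all 1986 genes with at least 20 UMIs and 0.13 for the measured targets in the other fibroblasts. Past 2-fold, 3 were lower in KO and 1 was higher, where 5.84% of all genes were lower and 7.6% higher. Atf5, a transcription factor of the same family, had 256 CPM in WT against 77.8 CPM in KO, a log2 ratio of -1.72 (-2.81 to -0.69). Gars, the glycyl-tRNA synthetase, was at 160 and 65.8 CPM, with -1.28 (-2.55 to -0.06), while it was 0.18 in the other fibroblasts. Cebpb, a partner of ATF4 in dimers, was at 767 and 437 CPM, with -0.81 (-1.30 to -0.32). In all, 6 of the 10 stood lower and 4 higher in KO. Vldlr, the lipoprotein receptor, stood higher with 4 and 18 UMIs, 1.34 (-0.26 to 3.36). So did Eif4ebp1 with 13 and 43 UMIs, 0.89 (-0.03 to 1.91), Nupr1 (0.47, -0.50 to 1.52) and Eprs (0.44, -0.41 to 1.35). Among cells with at least 3 adventitial genes the median of the list was 0.22. Most targets of the list were too rare to be counted in these cells.

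ATF4 with C/EBP partners binds the motif TGATGNAA. It was searched on both strands in RefSeq promoters on GRCm38.p6, from 250 bases before to 50 bases after the start of transcription. It was found for 14 of the 34 listed targets with a promoter (41.2%), against 4.51% of all 27025 genes with one, and for 4 of the 9 measured targets with a promoter. These 4 windows are shown because they are the measured genes whose promoters hold the motif, which stands in capitals on the opposite strand in each. They lie at chr7:126625557-126625596 (minus strand), chr19:27216804-27216843 (plus), chr1:191183420-191183459 (minus) and chr6:55037955-55037994 (plus).
Nupr1: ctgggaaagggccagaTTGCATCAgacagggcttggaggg
Vldlr: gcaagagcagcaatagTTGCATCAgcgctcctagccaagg
Atf3: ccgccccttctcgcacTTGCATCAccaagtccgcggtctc
Gars: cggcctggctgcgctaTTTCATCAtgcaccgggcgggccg
The log2 KO/WT ratios of these genes in adventitial-type cells ran in both directions, 0.47 for Nupr1, a stress-induced chromatin protein, 1.34 for Vldlr, -1.10 for the stress transcription factor Atf3 and -1.28 for Gars. Of the 4, only the counting interval of Gars excluded 0, and Atf3 had 12 and 10 UMIs.

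Across all genes, 634 outside the rule had at least 60 UMIs in the adventitial-type cells. Past 2-fold, 30 (4.73%) were higher in KO and 31 (4.89%) lower, and the counting interval lay above 0 for 14.4% and below 0 for 14.2%. The split depended on scaling. TMM scaling moved all log2 ratios up by 0.20, after which 47 genes were higher and 16 lower. The genes at the 2 ends of this range are described below with their roles, and all log2 ratios are KO over WT on the scale of CPM.

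The 12 genes furthest up in KO included the secreted proteins Serpinb2, Cxcl5, Cxcl13, Saa3, Hp, Rarres2 and Timp1. Serpinb2, the plasminogen activator inhibitor of macrophages and stressed cells (chromosome 1, 107511423 to 107535478), had 5 UMIs in 1 WT cell and 231 UMIs in 23 KO cells, 53.3 and 1382 CPM, a log2 ratio of 4.70 (3.45 to 6.33). Of its KO UMIs, 85 came from 1 cell. Cxcl5, a neutrophil-attracting chemokine, had 5 UMIs in 1 WT cell and 155 UMIs in 19 KO cells (53.3 and 928 CPM), with 4.12 (2.87 to 5.77). Cxcl13 rested on more cells, 13 in WT and 31 in KO, with 437 and 1813 CPM and a ratio of 2.05 (1.58 to 2.56). The acute phase gene Saa3 had 852 CPM in WT against 3327 CPM in KO, 1.96 (1.62 to 2.32). As 72 of its 80 WT UMIs came from 1 cell, the ratio without the highest cell of each library was 4.96. Haptoglobin, Hp, was at 63.9 and 383 CPM, with 2.58 (1.38 to 4.08), and the chemoattractant chemerin, Rarres2, was at 810 and 3088 CPM, with 1.93 (1.58 to 2.30) over 24 and 45 cells. The mitochondrial dismutase Sod2 was at 128 and 485 CPM, 1.92 (1.04 to 2.93). Timp1, which inhibits matrix metalloproteinases (chromosome X, 20870166 to 20874735), was at 884 CPM in 20 WT cells and 3160 CPM in 42 KO cells, 1.84 (1.5 to 2.19).

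The remaining genes of the KO-high end were of mixed kinds. S100a4, a calcium-binding protein of motile fibroblasts, was at 128 and 808 CPM, 2.66 (1.81 to 3.65). Cav1, the coat protein of caveolae, was at 74.6 and 461 CPM, 2.63 (1.52 to 3.99). Sbsn, a secreted epithelial protein, had 4 and 58 UMIs, 3.03 (1.59 to 4.95). Spp1, osteopontin, had 2 UMIs in WT and 114 in KO, 5.0 (3.11 to 8.06), but these KO UMIs lay in 5 cells and 51 of them in 1. Several of these ratios were smaller in the stricter gate. In cells with at least 3 adventitial genes the ratio was 2.89 for Serpinb2, 1.89 for Cxcl5, 1.46 for Cxcl13, 1.10 for Saa3 and 1.42 for Timp1. Among Xist-positive cells without a Y-linked UMI they were 2.85 for Cxcl5, 3.0 for Cxcl13, 0.19 (-2.08 to 2.27) for Hp, 1.58 (-0.39 to 3.80) for Sbsn and 1.78 for S100a4. At 2000 UMIs per cell the ratio was 0.75 for Timp1, 1.34 (-0.93 to 4.59) for Spp1, 1.26 (-0.36 to 3.29) for Cav1 and 1.71 for S100a4. The intervals for Hp, Sbsn, Spp1 and Cav1 thus held 0 in 1 of these settings each.

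**Figure D4:**
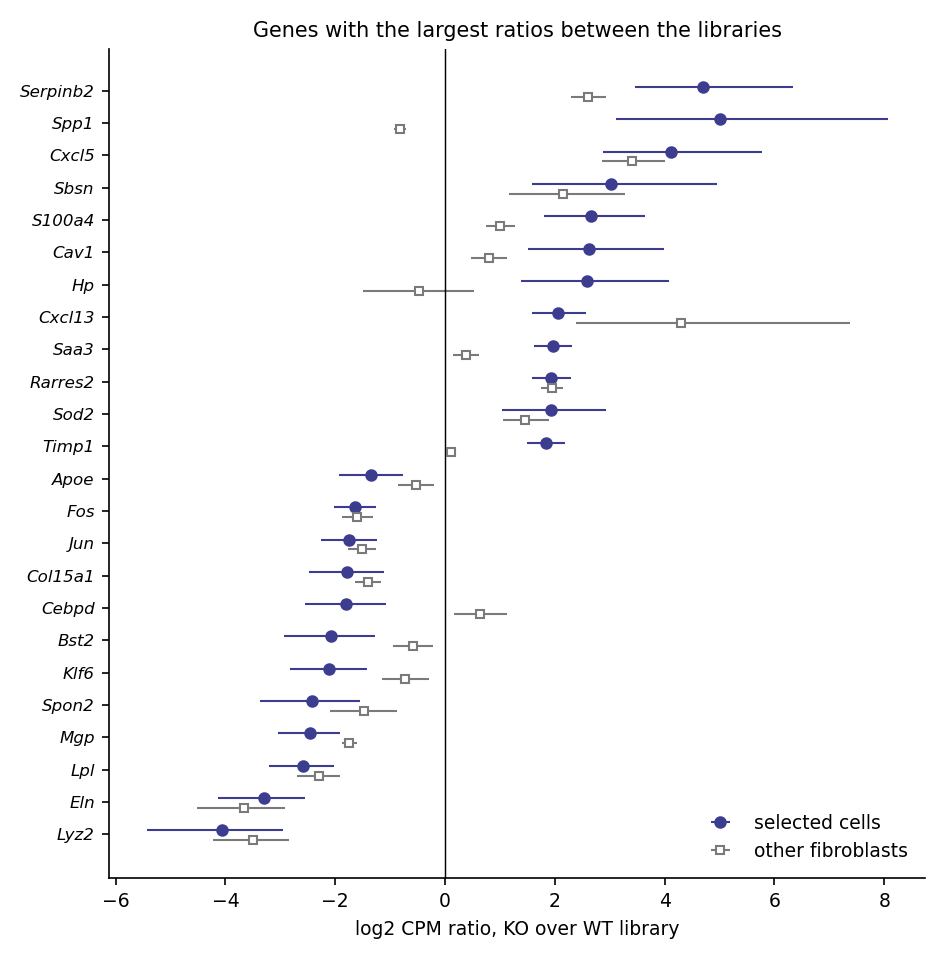
log2 KO/WT ratio (x axis) of the 12 genes furthest up and the 12 furthest down in adventitial-type fibroblasts (filled circles), with the ratio in other fibroblasts (open squares) and 95% counting intervals. Hp, Saa3 and Timp1 lay between 1.84 and 2.58 in the selected cells and between -0.48 and 0.39 in the others.

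The 12 genes furthest down in KO included Eln, Lpl, Mgp, Col15a1, Apoe, Fos, Jun and Klf6. Eln, elastin (chromosome 5, 134702593 to 134747323), had 1001 CPM in WT against 102 CPM in KO, -3.30 (-4.14 to -2.54). Of its 94 WT UMIs 43 came from 1 cell, and without the highest cell of each library the ratio was -2.71. Lpl, lipoprotein lipase, was at 1193 and 197 CPM in 21 and 19 cells, -2.60 (-3.20 to -2.02). Mgp, which inhibits calcification, was at 1225 and 221 CPM, -2.47 (-3.04 to -1.92), from only 9 and 6 cells, with 53 of 115 WT UMIs in 1 of them. Spon2, a secreted pattern recognition protein, was at 479 and 89.8 CPM, -2.42 (-3.37 to -1.55). Col15a1, a collagen of vessel basement membrane zones, was at 597 and 174 CPM, -1.78 (-2.48 to -1.11). Apoe, the lipid carrier, was at 682 and 269 CPM, -1.34 (-1.92 to -0.77), and Bst2, tetherin, at 479 and 114 CPM, -2.08 (-2.93 to -1.27). Lyz2, the lysozyme of myeloid cells, headed the list at -4.07, but 62 of its 66 WT UMIs came from the 1 cell that carried 92.6% of the myeloid marker UMIs, and without cells with myeloid or endothelial RNA its ratio was -0.12 (-2.10 to 2.10). Among the Xist-positive cells without a Y-linked UMI the ratios of Mgp (-1.12), Col15a1 (-0.70) and Apoe (-0.39) were nearer 0, and the intervals of the last 2 held 0. With at least 3 adventitial genes they were -5.44 for Mgp, -0.71 (-1.88 to 0.48) for Col15a1 and -1.97 for Apoe. Mgp was at -6.61 with 2000 UMIs per cell and at -3.23 without the highest cell of each library.

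Immediate early genes stood lower in KO as a list. Of 18 measured genes of 20, 8 were past 2-fold lower and 0 higher, where 5.84% and 7.6% of all genes were, and the median was -0.70, against 0.06 for all genes. Fos and Jun, which together form the AP-1 factor, were at 1737 and 557 CPM (-1.64) and at 1023 and 305 CPM (-1.74). With at least 3 adventitial genes these ratios were -0.87 for Fos and -1.03 for Jun, and Jun was at -1.17 among the Xist-positive cells without a Y-linked UMI. Klf6, a zinc finger factor, was at 671 and 156 CPM, -2.11 (-2.83 to -1.43). Junb (-0.24) and Nr4a1 (-0.14) had counting intervals that held 0, and Ier3 alone stood higher, at 0.42 (-0.02 to 0.89). The same genes had a median of -0.80 in the other fibroblasts. These genes also respond to tissue dissociation, whose duration in each library was not given in the sources used here.

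Collagen chains stood lower in KO, by less than in the other fibroblasts. Of 17 measured chains of 18, the interval lay below 0 for 12, where 8.51% of genes with at least 20 UMIs did so. It lay above 0 for none, where 8.01% did so. Such shares depend on the number of UMIs, and with at least 60 UMIs they were 14.2% and 14.4%. The median was -0.53 against -1.01 for the same chains in the other fibroblasts. Past 2-fold, 3 were lower and 1 was higher, namely Col8a1 with 4 and 17 UMIs, where 5.84% and 7.6% of all genes were. Col3a1, the chain of type III fibrils (chromosome 1, 45311538 to 45349706), was the most abundant gene of the list at 26081 and 22621 CPM, -0.21 (-0.28 to -0.13). Col1a1 and Col1a2, the chains of type I fibrils, were at 11592 and 9084 CPM (-0.35) and at 12401 and 10024 CPM (-0.31). The ratios of these 3 chains in the other fibroblasts were -0.58, -0.74 and -0.75, and the difference between the cells was 0.37 (0.28 to 0.46) for Col3a1, 0.39 (0.26 to 0.51) for Col1a1 and 0.44 (0.32 to 0.56) for Col1a2. Of all 17 chains, 15 had a higher ratio in the adventitial-type cells, and the share over all genes was not counted. The lean was not particular to collagen chains. It was also seen for 9 of 10 endoplasmic reticulum chaperones, 10 of 13 elastic fibre genes and 10 of 13 collagen enzymes. The ratio was lower for 10 of 16 hypoxia and glycolysis genes and 5 of 6 adipocyte lineage genes. The ratio of the fibrillar chains depended on the cells and the scaling. It was 0.079, 0.10 and 0.10 for Col1a1, Col1a2 and Col3a1 in cells with at least 3 adventitial genes, and -0.15, -0.10 and -0.00 with TMM scaling. Among the Xist-positive cells without a Y-linked UMI it was further from 0, at -0.53, -0.67 and -0.46, with intervals below 0. The basement membrane chain Col4a1 (-0.78) and the microfibril chains Col6a1 (-0.75), Col6a2 (-1.17) and Col6a3 (-0.63) lay further from 0. Of the enzymes that fold and trim collagen, 13 of 15 were measured with a median of 0.28. That median was 0.04 with at least 60 UMIs, -0.12 with at least 3 adventitial genes and -0.35 at 2000 UMIs per cell. The interval lay above 0 for 1 of the 13 and below 0 for 3. The collagen chaperone Serpinh1 stood at -0.90 (-1.16 to -0.64), while P4ha2, a prolyl hydroxylase, had 2 and 25 UMIs, 2.81 (0.81 to 5.93).

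Elastic fibre genes divided into a few that were low and many that were level. Of 13 measured genes of 16, the median was 0.02 against -0.43 for the same genes in the other fibroblasts. Past 2-fold, 3 were lower, where 5.84% of all genes with at least 20 UMIs were. These were Eln, the microfibril gene Mfap4 (22 and 3 UMIs, -3.71, -6.09 to -1.97) and Mfap2 (-1.07). The fibrillin Fbn1 was at 1843 and 2089 CPM (0.18), Mfap5 at 2099 and 2136 CPM (0.03) and the fibulin Fbln2 at 1236 and 1215 CPM (-0.02), each with an interval that held 0. The crosslinking enzyme Lox was at 682 and 1335 CPM, 0.97 (0.56 to 1.39). For Fbn1 and Mfap5, whose ratios in the other fibroblasts were -0.23 and -0.66, the difference was 0.41 (0.08 to 0.73) and 0.69 (0.40 to 0.98). Small proteoglycans had 4 measured genes of 8, with Bgn at 2717 and 2394 CPM (-0.18) and Prelp at 128 and 263 CPM (1.04, 0.10 to 2.10).

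Proteases and their inhibitors had a median of -0.10 over 11 measured genes of 15, and 0.10 with TMM scaling. The 2 genes past 2-fold higher were the protease inhibitors Serpinb2 and Timp1, and 1 was lower, where 7.6% and 5.84% of all genes were. The gene that was lower, Timp3, was at 437 and 215 CPM, -1.02 (-1.71 to -0.34). The stromelysin Mmp3 was at 479 and 598 CPM, 0.32 (-0.20 to 0.86), and the membrane protease Mmp14 was at 309 and 227 CPM, -0.44 (-1.18 to 0.31). Among hyaluronan and lubrication genes outside the rule, Tnfaip6 was at 970 and 1035 CPM and the proteoglycan Vcan at 799 and 826 CPM, while the hyaluronan receptor Cd44 was at 256 and 569 CPM, 1.15 (0.49 to 1.86), and the synthase Has1 at 607 and 419 CPM, -0.54 (-1.06 to -0.01).

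Chemokines and cytokines went in both directions. Of 14 measured genes of 18, 6 were past 2-fold higher in KO and 1 lower, where 7.6% and 5.84% of all genes were, with a median of 0.34 against 0.01 for the same genes in the other fibroblasts. Beside Cxcl5 and Cxcl13 the higher ones were Cxcl2, Cxcl14, Ccl8 and the alarmin Il33. Cxcl2, which attracts neutrophils, was at 224 and 485 CPM (1.12). Ccl8, a monocyte attractant, was at 213 and 533 CPM in 12 and 23 cells (1.32, 0.61 to 2.10), against -0.37 in the other fibroblasts. Il33 was at 224 and 742 CPM, 1.73 (1.05 to 2.47), but 0.16 (-0.67 to 1.03) in cells with at least 3 adventitial genes. Cxcl12, the ligand of CXCR4, was at 746 and 1125 CPM, 0.59 (0.19 to 1.01). The most abundant members were close to level, Cxcl1 at 1928 and 2035 CPM (0.08, -0.19 to 0.35) and Ccl2 at 2152 and 1783 CPM (-0.27, -0.53 to -0.01). The interferon-induced Cxcl10 was the 1 lower gene, with 18 and 5 UMIs (-2.68).

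Complement genes were lower or level in KO, with a median of -0.35 against 0.06 for all genes. The interval lay below 0 for 2 of 5, where it did for 8.51% of all genes, and for 14.2% of those with at least 60 UMIs. C3 stood at -0.35 (-0.61 to -0.08) and C1s1 at -0.80 (-1.40 to -0.20), while Serping1 was at -0.00 (-0.30 to 0.31). The IGF axis split by protein. Igf1, the ligand, was at 352 and 95.8 CPM, -1.88 (-2.84 to -0.97), and the binding proteins Igfbp4 (-0.72) and Igfbp7 (-1.13) were lower, while Igfbp3 (2 and 40 UMIs, 3.49, 1.54 to 6.58) and Igfbp5 (4 and 33 UMIs, 2.21) were higher and Igfbp6, a Pi16-type marker, was at 1001 and 1125 CPM (0.17, -0.20 to 0.54). The KO UMIs of Igfbp3 and Igfbp5 lay in 15 and 8 cells. Of the secreted regulators of WNT, BMP and TGF-beta, 7 of 18 were measured. Wisp2 had 24 and 4 UMIs (-3.42), the latent TGF-beta binding protein Ltbp1 had 16 and 9 (-1.66), and the activin chain Inhba had 0 UMIs in WT and 20 in 4 KO cells, which puts the lower end of the counting interval at 1.47 log2 units.

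The Pi16-type markers themselves were near level between the libraries, as most genes were. Of the 16 measured, 11 stood higher and 5 lower, the median was 0.17, and 13 had intervals that held 0. The interval lay above 0 for 2 and below 0 for 1. Over all genes with at least 20 UMIs it did so for 8.01% and 8.51%, and the median was 0.06. Ly6c1 (0.63, 0.19 to 1.09) and the protein C receptor gene Procr (4 and 24 UMIs, 1.75) were higher, and Cmah, which makes a sialic acid, was lower (13 and 9 UMIs, -1.36). The markers of the Col15a1-type fibroblast had a median of -1.02 over 6 measured genes of 10, but of -0.30 among the Xist-positive cells without a Y-linked UMI and of -0.26 over genes with at least 60 UMIs. Activated markers were rare in these cells and their list had no stable direction. Il1rl1, the receptor of Il33, had 1 and 41 UMIs (4.53, 1.97 to 9.86), Cthrc1 had 7 and 42 (1.75, 0.59 to 3.15), Tpm2 had 3 and 26 and Tnc had 0 and 20 (lower end of the interval 1.47), whereas Postn, periostin, was at 1619 and 706 CPM (-1.20, -1.56 to -0.84). The list's median of 1.75 over 7 genes was -1.76 in the Xist-positive cells without a Y-linked UMI and -0.80 in cells with at least 3 adventitial genes.

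**Figure D5:**
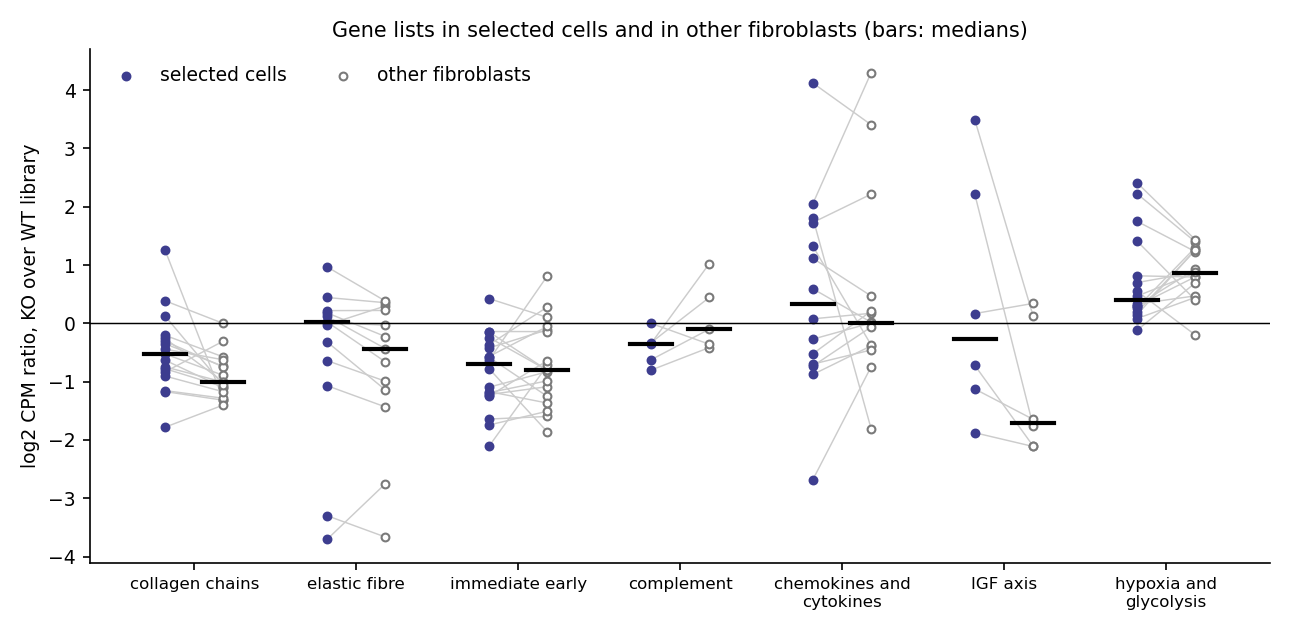
log2 KO/WT ratio (y axis) of each measured gene of 7 lists in adventitial-type (filled) and other fibroblasts (open), with grey lines joining the same gene and bars at the medians. Collagen chains had medians of -0.53 and -1.01, and hypoxia and glycolysis genes of 0.40 and 0.87.

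Genes of hypoxia and glycolysis were lower in the adventitial-type cells than in the other fibroblasts for 12 of 16 measured genes in both libraries, where 28.9% of genes with at least 20 UMIs were. Between genotypes 15 of the 16 stood higher in KO, with a median of 0.40 against 0.87 for the same genes in the other fibroblasts. The share of all genes standing higher was not counted. The interval lay above 0 for 3 of the 16, where it did for 8.01% of all genes with at least 20 UMIs. Past 2-fold, 4 were higher and 0 lower, where 7.6% and 5.84% of all genes were. Ldha, lactate dehydrogenase, was at 639 and 1125 CPM, 0.82 (0.39 to 1.26). Gapdh stood at 1417 and 1706 CPM, 0.27 (-0.03 to 0.58), against 1.30 in the other fibroblasts, a difference of -1.03 (-1.36 to -0.70). Pgk1 and Tpi1, further enzymes of glycolysis, differed by -1.12 (-1.64 to -0.58) and -1.06 (-1.72 to -0.38). Bnip3, Ndrg1 and Slc2a1, induced by low oxygen, had 3, 4 and 3 UMIs in WT and 25, 38 and 18 in KO. The median of the list was -0.40 in the Xist-positive cells without a Y-linked UMI.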

How the data were processed

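Single-cell RNA-seq (10x 3′ chemistry, for which the labels and the study's methods give different kit versions) was analysed from the deposited raw UMI counts per gene and cell. Per the file headers and the labels, the authors made these counts with Cell Ranger 3.1.0 on GRCm38, and their notes name Seurat 3.2.1. Strand use in counting was not given in the sources used here.

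Barcodes were kept if they had 200 to 5000 genes and no more than 7.5% of UMIs from mitochondrial genes. The cells, gene lists and comparisons were chosen with earlier results of these data known. UMIs were summed per library and scaled to CPM. Sums carry exact Poisson, shares Clopper-Pearson and ratios exact conditional binomial intervals, and the difference of 2 log2 ratios that of the conditional odds ratio, all at 95%, with UMIs taken as if independent. In ratios a count of 0 was set to 3. In medians and calls past 2-fold counts under 3 were set to 3. Genes between genotypes needed 60 UMIs and listed genes 20, counted in the adventitial-type cells of both libraries. Named genes are the lists and, among genes outside the rule, the 12 furthest in each direction between genotypes and the 12 above and 8 below other fibroblasts. Gene positions come from GENCODE vM21. Other promoter motifs were looked at and are not reported. Some genes are not reported here and were left out of the lists.

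Python 3.11.15, numpy 2.4.6, pandas 2.3.3, scipy 1.17.1, scanpy 1.11.5 (Scrublet) and edgeR 4.0.16 (TMM only) were used. The ratio step was tested on simulated data. Thinning was a single random draw per cell. Alternatives are given at the end.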

Additional observations from a re-analysis of the deposited data

Results flagged for a closer look

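Among the listed and named genes, 6 had counting intervals of the KO/WT ratio on opposite sides of 0 in the adventitial-type and other fibroblasts. Some genes looked at had been named for their large ratios, and the share over all genes was not counted. The difference was not tested, as there was 1 library per genotype. Cxcl14, a chemokine of skin fibroblasts, had 234 CPM in WT against 820 CPM in KO in the adventitial-type cells, a log2 ratio of 1.81 (1.15 to 2.53), and at -1.81 in the other fibroblasts, a difference of 3.62 (2.88 to 4.40). Its 137 KO UMIs came from 8 cells and 46 of them from 1. Igfbp5 differed by 3.97 (1.96 to 6.2), with 8 KO cells behind it, and Cthrc1, a collagen-associated glycoprotein, by 2.54 (1.33 to 3.95), with 21 KO cells. Spp1 differed by 5.82 (3.93 to 8.88), with 5 KO cells. Cebpd, a transcription factor of the acute phase and of early fat cells, was at 522 and 150 CPM in 21 and 17 cells, -1.80 (-2.56 to -1.08), and at 0.64 (0.17 to 1.13) in the other fibroblasts, a difference of -2.45 (-3.34 to -1.56). C3 differed by -1.37 (-1.83 to -0.92), since its level in the other fibroblasts was higher in KO (1.02) and in the adventitial-type cells lower (-0.35).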

How the results depend on the processing

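No paired analysis was possible because WT and KO were represented by 1 library each, and no replicate could be left out. Over the alternatives, 138 values of Atf4, shares, counts and main lists were called unchanged and 23 were not. For single genes and other lists 465 values were called unchanged, 51 were not and another 5 reversed. Removing Scrublet doublets and lifting the upper limit on genes each selected the same 31 WT and 48 KO cells. KO/WT ratios in the adventitial-type cells could not change there, and all 63 values of each were called unchanged. The number of unchanged values is therefore not a measure of stability. A count had to stay within 1.5 times, and a ratio within its counting interval. A list median had to stay within a band as wide as the intervals of its single genes, so changes of sign could pass. For example, the hypoxia and glycolysis median went from 0.40 to -0.40 among Xist-positive cells lacking Y-linked UMIs. The ATF4 target median went from -0.39 to 0.22 among cells with at least 3 adventitial genes. For the share among kept cells, the log2 ratio was 1.96 in cells with Xist and no Y-linked UMI, where the denominator was 1362 WT and 205 KO cells. The 30 genes past 2-fold higher in KO and the 31 lower became 15 and 16 with those cells, 16 and 9 with at least 3 adventitial genes, 12 and 8 at 2000 UMIs per cell, 47 and 16 with TMM, 151 and 116 with at least 20 UMIs and 8 and 5 with at least 200. Leaving out each gene's highest cell per library, chosen after seeing the data, gave 38 and 27. The 96 genes above the other fibroblasts became 49 with Xist and no Y-linked UMI, 62 with at least 4 fibroblast genes, 62 at 2000 UMIs, 279 with at least 20 UMIs and 40 with at least 200. The 43 below became 26 with at least 3 adventitial genes, 73 with TMM and 11 with at least 200 UMIs. The chemokine median was 1.12 with at least 60 UMIs, and the Pi16-type median in KO was 0.94 with Xist and no Y-linked UMI. Called reversed was the activated list (-1.76 among Xist-positive cells lacking Y-linked UMIs, -0.80 with at least 3 adventitial genes). So were Col1a1, Col1a2 and Col3a1 (0.079, 0.10 and 0.10 with at least 3 adventitial genes). The cause was not tested. Depth limits genes to about 20 UMIs over 79 cells.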

Other observations

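Of 14 endoplasmic reticulum chaperones, 10 were measured in the adventitial-type fibroblasts. Past 2-fold, 0 were higher or lower in KO, where 7.6% and 5.84% of all genes were. Their median log2 KO/WT ratio was -0.21 against -0.55 for the same genes in the other fibroblasts. Hspa5, the main chaperone of the lumen, was at 746 and 802 CPM (0.10, -0.32 to 0.54), and the disulphide isomerase Pdia3 was the 1 gene with an interval below 0 (-0.65, -1.21 to -0.09). Of 11 interferon-stimulated genes 5 were measured, with a median of -0.88 against -0.18 in the other fibroblasts, and of -2.22 among the Xist-positive cells without a Y-linked UMI. Ifi27l2a was at 948 and 515 CPM (-0.88, -1.33 to -0.44), and Ifitm3, which blocks virus entry, was at 2759 and 3076 CPM (0.16, -0.06 to 0.38). Of 14 genes of the adipocyte lineage 6 were measured, with a median of -0.82 against 0.09. That median was -1.80 over genes with at least 60 UMIs and -1.83 at 2000 UMIs per cell. Fabp5, a fatty acid carrier, had 20 UMIs in each library (-0.83, -1.80 to 0.14), while Fabp4, a carrier of fat cells and capillaries, had 16 of its 26 KO UMIs in 1 cell.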
